A study of Mus musculus with 12 samples.

Results

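The apolipoprotein and lipoprotein assembly genes examined were Apoa1, Apoa2, Apoa4, Apob, Apoc2, Apoe, Apom, Mttp, Mogat2 and Vldlr, and every array probe carrying one of these symbols was taken, whatever its value. The 10 genes had 20 of the 45281 probes of an Illumina MouseWG-6 V2.0 bead array. A probe was detected on an array where its detection p against the negative-control beads was under 0.01. The 12 of the 20 probes detected on at least 3 arrays were tested, and they represent 8 of the 10 genes among 10597 genes tested in all.

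The RNA came from 12 samples of XEN cells, a mouse stem cell line of the extraembryonic endoderm, here transgenic for GFP under Afp (Afp::GFP) and kept in N2B27 medium. The 4 groups of 3 arrays were untreated cells, cells given the growth factor BMP4 and left unsorted, and the GFP positive and GFP negative fractions obtained by flow sorting of BMP4-treated cells. All groups carried the transgene. The reporter gates on Afp, which encodes the fetal plasma protein alpha-fetoprotein, so the sorted fractions were defined by the activity of that one promoter in one line. The sources used here do not give the dose or duration of BMP4. Nothing in the labels says that the 3 samples of a group came from separate cultures, so p-values measure the spread between these samples, which may be technical.

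Lipoproteins carry lipid between cells in particles wrapped by apolipoproteins. Apolipoprotein B forms the scaffold of the large triglyceride-rich particles, and the microsomal triglyceride transfer protein encoded by Mttp loads lipid onto it in the endoplasmic reticulum. The exchangeable apolipoproteins, among them those of Apoa1, Apoa2, Apoa4, Apoc2, Apoe and Apom, move between particles, and the VLDL receptor takes particles up at the cell surface. In the mouse embryo the visceral endoderm secretes such particles before the liver forms, and loss of Apob or Mttp is lethal in mid-gestation.

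The arrays of the unsorted samples were brighter than those of the sorted samples, with a median signal of 53.4 to 60.9 against 22.6 to 32.4, and 13872 to 14737 against 13105 to 13745 probes detected. Values below are log2 intensities after background correction and quantile normalization across the 12 arrays, with means ± SD over 3 arrays, and differences are given ± SE. Changes were tested with limma, and a gene is called where its p, adjusted by Benjamini and Hochberg's method, is under 0.05. The 7 XEN cell markers were detected on every array, with a summed linear level of 34610 to 35200 in untreated cells, 25830 to 27180 after BMP4, 23490 to 24770 in GFP positive and 26760 to 27420 in GFP negative cells. The summed level of 9 parietal endoderm markers was 115300 to 130100 in untreated cells, 78450 to 81950 after BMP4, 62030 to 66760 in GFP positive and 61790 to 66210 in GFP negative cells. That of 10 mesoderm, blood and endothelium markers, of which 2 or 3 were detected on an array, was 2301 to 2453, 986.8 to 1075, 804 to 851.6 and 666.8 to 681 in the same order. Of 9 visceral endoderm markers, 7 were detected on the untreated arrays, 9 on the BMP4 arrays and 8 on the sorted arrays. The summed level of the visceral endoderm markers was 6579 to 6898 in untreated cells, 9567 to 10450 after BMP4, 16110 to 16950 in GFP positive cells and 16890 to 18610 in GFP negative cells. Ttr was the brightest of them in every group and weighed most in this sum. With BMP4 Ttr was called lower, by 0.22 (adjusted p = 0.0299), and the other 8 higher, beside 28.7% and 30.2% of all genes. In GFP positive against GFP negative cells Trf was called higher and Amn, Cubn, Lrp2 and Rbp4 lower, beside 3.07% and 2.32% of all genes. The mean of Rbp4 was under the detection level in both fractions. It was detected on no untreated array and entered the test only through treated groups. None of 6 feeder fibroblast markers was detected. Of 8 hepatocyte and gut markers only Vil1 (9 arrays) and Cdx1 (1 array) were detected, and Alb was on none. Of 8 macrophage markers only Csf1r and Cd68 were detected, with Ptprc, Adgre1, Lyz2, Mrc1, C1qa and C1qb on no array, and their summed level was 239.2 to 267.5 in untreated cells, 249.9 to 309.2 after BMP4, 485.8 to 528 in GFP positive cells and 421.5 to 441.7 in GFP negative cells. The part of other cell types in the differences below was not tested. Fewer cells expressing a gene and less of its RNA per cell cannot be told apart in such bulk samples.

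The promoters of the 6 genes that rose with BMP4 and were detected on every BMP4 array are printed because these genes shared that direction. Between the sorted fractions their directions differed, as given below. They are the 200 bases upstream of the first listed start of each gene, from RefSeq on GRCm38.p6, in the direction of transcription and 5′ to 3′. Capitals mark matches, on either strand, to the motif letters CAAAGNNCA for HNF4, GTTAAT for HNF1, GATAA for the GATA factors and GGCGCC for SMAD.
Apoa1, chr9:46228430-46228629, plus strand: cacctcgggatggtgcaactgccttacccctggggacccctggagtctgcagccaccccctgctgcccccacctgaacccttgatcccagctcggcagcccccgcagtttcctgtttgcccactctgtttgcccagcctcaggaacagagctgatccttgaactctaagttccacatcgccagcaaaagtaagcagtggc
Apoa2, chr1:171224854-171225053, plus strand: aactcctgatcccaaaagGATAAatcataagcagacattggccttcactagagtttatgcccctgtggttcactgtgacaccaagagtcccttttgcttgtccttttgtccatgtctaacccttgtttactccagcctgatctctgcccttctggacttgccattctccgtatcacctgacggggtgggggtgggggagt
Apob, chr12:7977477-7977676, plus strand: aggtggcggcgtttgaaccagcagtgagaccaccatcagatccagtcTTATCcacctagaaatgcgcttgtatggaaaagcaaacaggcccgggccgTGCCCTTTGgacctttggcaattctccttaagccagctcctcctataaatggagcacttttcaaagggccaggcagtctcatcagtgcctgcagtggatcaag
Apoe, chr7:19699189-19699388, minus strand: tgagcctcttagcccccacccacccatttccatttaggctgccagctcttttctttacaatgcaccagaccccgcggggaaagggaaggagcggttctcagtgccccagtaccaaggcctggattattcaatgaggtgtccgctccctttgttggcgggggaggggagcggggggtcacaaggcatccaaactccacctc
Apom, chr17:35131802-35132001, minus strand: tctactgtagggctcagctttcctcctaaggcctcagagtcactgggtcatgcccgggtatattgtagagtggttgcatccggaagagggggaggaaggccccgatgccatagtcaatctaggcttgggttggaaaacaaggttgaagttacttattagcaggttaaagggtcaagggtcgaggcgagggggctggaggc
Mttp, chr3:138143419-138143618, minus strand: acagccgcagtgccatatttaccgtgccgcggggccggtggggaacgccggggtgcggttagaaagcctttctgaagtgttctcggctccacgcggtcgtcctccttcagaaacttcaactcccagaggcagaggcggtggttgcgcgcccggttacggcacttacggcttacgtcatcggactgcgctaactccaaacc

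In the 250 bases searched upstream, the Apob promoter held the HNF4 match 103 bases and the GATA match 153 bases before the start, and the Apoa2 promoter held the GATA match 182 bases before it. These matches belong to the first listed start. No match to the 4 motifs lay in the windows of Apoa1, Apom, Mttp or the first start of Apoe. The second listed starts of Apoa2 and Apoe had no match, and the third of Apoe had a HNF1 match 172 bases upstream. Vldlr had a HNF1 match 102 bases upstream of its first start and a SMAD match 178 bases upstream of its second. Apoa4, which was not detected on any array, had a HNF4 match 182 bases upstream, and Apoc2, detected on 1 array, had a HNF1 match 89 and a GATA match 18 bases upstream. Over all 32851 promoter windows the HNF4 motif was present in 5.49%, the HNF1 motif in 6.43%, the GATA motif in 22.6% and the SMAD motif in 9.59%. The Mttp window was the richest of the 6 in CpG, with 25 CpG and 61.2% GC, against medians of 6 CpG and 52.4% GC over all windows, and Apoa2 had 2 CpG and 46.4% GC. A promoter entry was available for 9 of the 10 genes, Mogat2 being the exception.

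Detection separated the genes before any test. Apoe, whose product is the ligand of the LDL receptor family, was detected on 12 of 12 arrays, as was Vldlr with 3 of its 5 probes. Apoa1, Apoa2 with both probes, and Apom with both probes were detected on 9 arrays each, all of BMP4-treated cells, and on no untreated array. Mttp was detected on 2 of 3 untreated arrays and on all 9 others. Apob was detected on all BMP4 and all GFP positive arrays but on 1 GFP negative array and no untreated array. Mogat2, which encodes a monoacylglycerol acyltransferase that feeds triglyceride synthesis, was detected with 1 of its probes on 1 BMP4 array and all 3 GFP negative arrays, and its other probe on none.

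**Figure D1:**
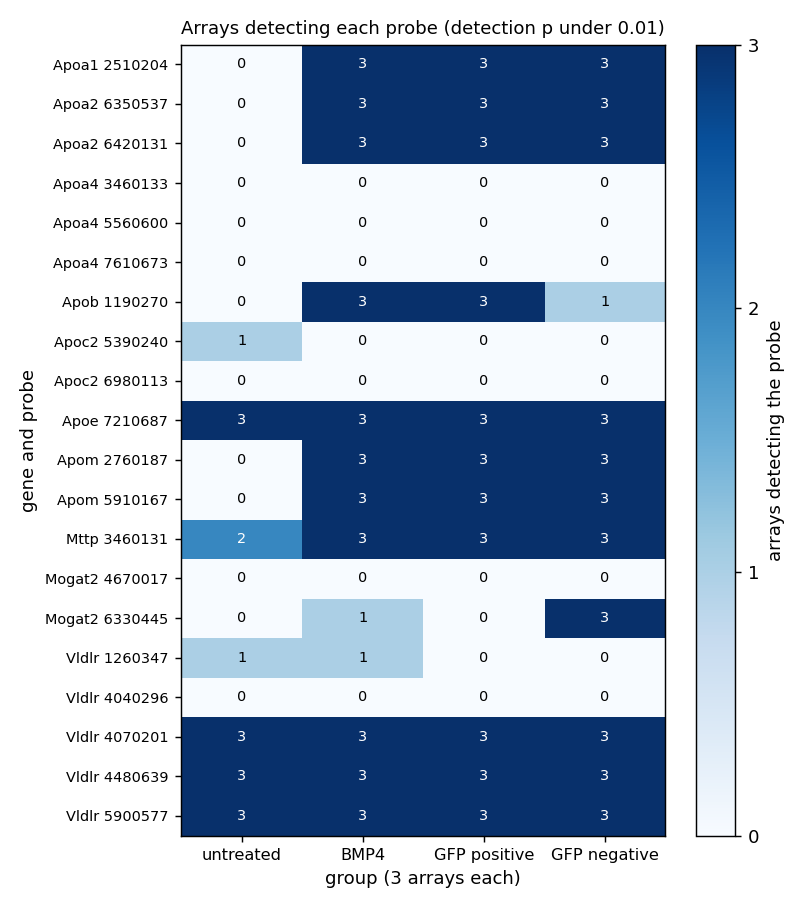
Number of arrays, out of 3 per group, on which each of the 20 probes of the 10 genes was detected (rows, probes with their gene; columns, groups). Apoa1, Apoa2 and Apom pass from 0 arrays in untreated cells to 3 in each BMP4-treated group, and Apoa4 is at 0 throughout.

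Apoa4, an apolipoprotein of intestinal chylomicrons, had 3 probes with signals of 19.8 to 79.2 over all arrays, none of them detected. Apoc2, the cofactor of lipoprotein lipase, had 2 probes with signals of 34.2 to 83.5, detected by 1 probe on 1 untreated array. Neither gene was tested, and these values say only that they were not above background with these probes. Both lie in gene clusters with members that were detected. In the RefSeq order of the protein-coding genes on chromosome 9, Apoa1 (9 arrays) is followed by Apoc3 (1 array), Apoa4 (0 arrays) and Apoa5 (0 arrays). On chromosome 7, Apoc2 (1 array), Apoc4 (0 arrays) and Apoc1 (0 arrays) precede Apoe (12 arrays).

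The first comparison, of BMP4-treated with untreated cells, asked how the growth factor changed these genes. Of the 8 genes tested, 7 were called higher and 1, Vldlr, was called lower, in a comparison in which 58.9% of all genes were called, 30.2% higher and 28.7% lower. The genes not detected in untreated cells could enter the test only through the treated groups where they were high, so the count of 7 describes these genes and is no support for a direction. The median difference of the 8 genes was 2.37 on the log2 scale, against 0.03 over all genes tested. It was 2.02 with the 5 genes that lay under detection in a group set at their bound. Mogat2, 1 of these, had no bound and was counted as unchanged. The arrays of the same 7 lay wholly above the untreated ones and those of Vldlr wholly below, as did those of 31.7% and 29.6% of all genes. Where a group was not above background, the change is given as a lower bound, computed against the lowest detected value on that group's arrays.

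Among the exchangeable apolipoproteins of HDL, Apoa1, its main protein, stood at 4.61, 5.01 and 4.83 on the untreated arrays and at 7.77, 7.91 and 8.03 on the BMP4 arrays. The groups did not overlap, and the untreated values were not above background. Apoa1 was at least 5.37-fold higher after BMP4 (adjusted p = 6.62e-11). Apoa2, the second protein of HDL, stood at 5.35, 5.11 and 5.07 in untreated and at 9.07, 9.29 and 9.06 in BMP4-treated cells. Its arrays were again fully separated, from background in every untreated sample. It was at least 12.7-fold higher (adjusted p = 3.35e-12), and a second probe gave at least 3.93-fold.

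Apom encodes a lipocalin of HDL that carries sphingosine-1-phosphate. It stood at 4.46, 4.67 and 4.69 in untreated cells and at 8.01, 7.98 and 7.57 after BMP4. The third BMP4 array was the lowest of its group, yet far above all untreated arrays. The change was at least 5.19-fold (adjusted p = 8.49e-11), and at least 2.01-fold with the second probe. Apoe was the one exchangeable apolipoprotein of the set already above background in untreated cells, at 7.78, 7.49 and 7.52. After BMP4 it stood at 10.74, 10.84 and 10.75, within a range narrower than that of the untreated arrays. It rose 9.08-fold, by 3.18 ± 0.09 (adjusted p = 5.06e-12).

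The genes of particle assembly moved in the same direction. Apob stood at 4.48, 4.40 and 4.45 in untreated cells and at 6.18, 5.78 and 5.65 after BMP4. All BMP4 arrays exceeded all untreated arrays, which were at background, but only narrowly passed the detection level. The bound was at least 1.32-fold (adjusted p = 8.11e-06). Mttp stood at 5.81, 5.23 and 5.50 in untreated cells and at 7.13, 7.32 and 7.07 after BMP4. It was near the detection level in untreated cells, with the second array below it. It rose 3.16-fold, by 1.66 ± 0.12 (adjusted p = 9.06e-08).

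Mogat2 stood at 4.50, 4.55 and 4.56 in untreated cells and at 5.28, 5.36 and 5.62 after BMP4. The arrays did not overlap, but the mean of neither group reached the detection level, so no fold is given beside its adjusted p of 1.46e-05. Vldlr differed from the other 7 in sign. This receptor for apolipoprotein E-bearing particles stood at 9.77, 9.67 and 9.63 in untreated cells and at 9.30, 9.47 and 9.44 after BMP4. The groups did not overlap, but the gap between them was of the size of the range within each. It fell by 0.29 ± 0.08, 1.22-fold lower (adjusted p = 0.0047), and the other kept probes fell by 0.48 and 0.43.

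**Figure D2:**
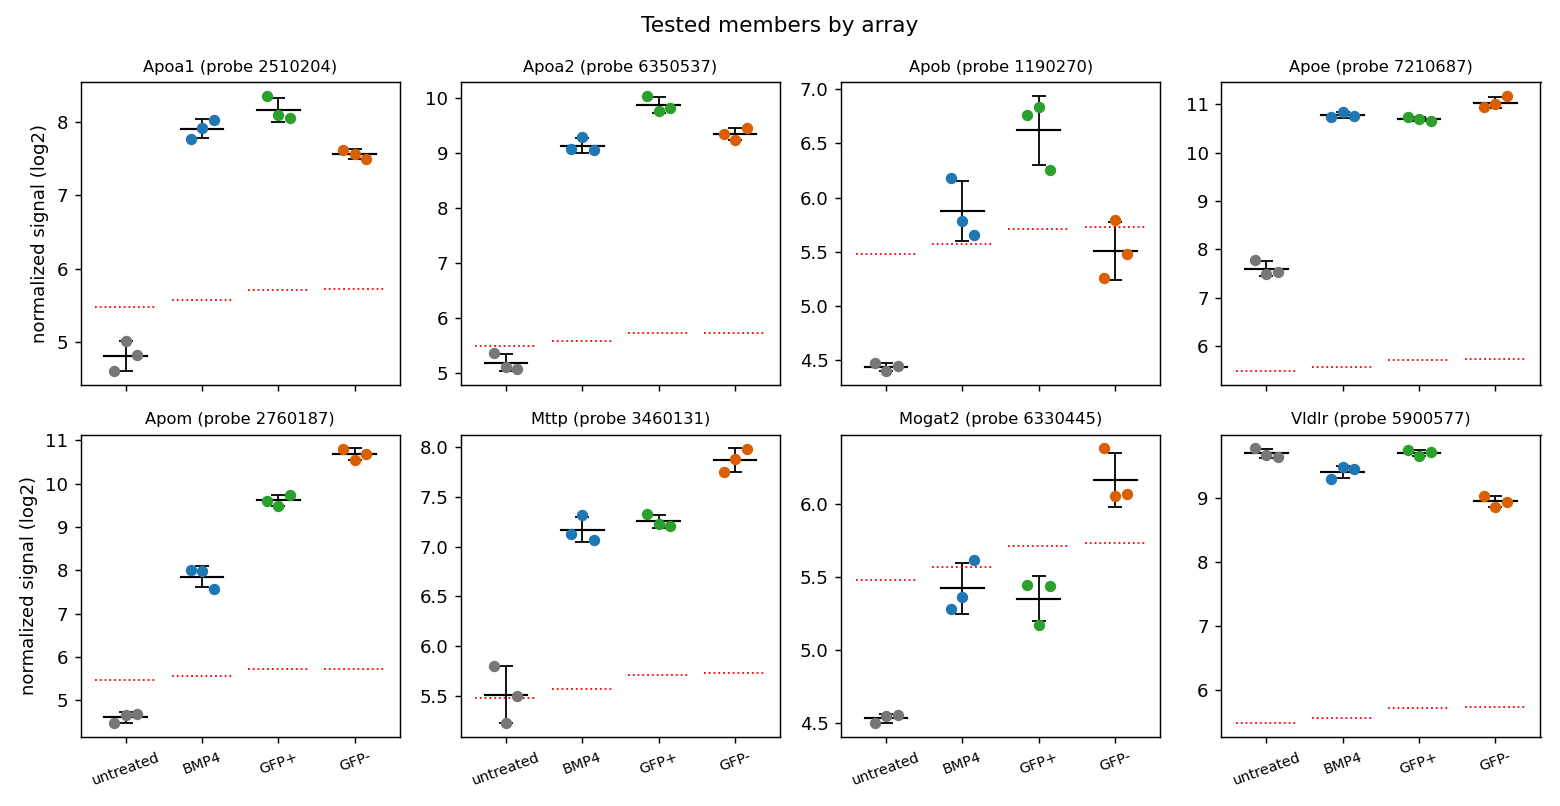
Normalized log2 intensity of the brightest kept probe of each of the 8 tested genes on each array (points), with the mean and SD of 3 arrays (bars) and, as red dotted lines, the mean of the lowest detected values on each group's arrays. Apoa1, Apoa2, Apob, Apom and Mogat2 lie under the dotted line in untreated cells, and Vldlr is lowest in GFP negative cells.

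The second comparison, of GFP positive with GFP negative cells after BMP4, asked how these genes differed with the activity of the Afp reporter. Afp itself stood at 9.58 ± 0.17 in GFP positive and 7.35 ± 0.13 in GFP negative cells (SD, n = 3), a difference of 2.23 ± 0.17 (adjusted p = 6.3e-06), so the labels of the fractions and the gene agreed in direction. Of the 8 genes tested, 4 were called higher in GFP positive cells (Apoa1, Apoa2, Apob and Vldlr) and 4 lower (Apoe, Apom, Mttp and Mogat2), in a comparison in which 5.39% of all genes were called, 3.07% higher and 2.32% lower. The arrays of all 8 did not overlap between the fractions, where 13.1% of all genes lay wholly above and 14.3% wholly below. The median difference of the 8 genes was 0.09, against -0.01 over all genes tested. Mogat2 and Apob were in part under the detection level here, so that the difference was bounded and not measured.

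Higher in GFP positive cells were the 2 major proteins of HDL and the scaffold protein of the triglyceride-rich particles. Apoa1 stood at 8.35, 8.08 and 8.05 in GFP positive and 7.62, 7.56 and 7.49 in GFP negative cells. The lowest GFP positive array lay above the highest GFP negative one. It was 1.52-fold higher, by 0.61 ± 0.11 (adjusted p = 0.00582). Apoa2 stood at 10.04, 9.76 and 9.82 against 9.36, 9.25 and 9.45. The first GFP positive array was the highest of its group. Apoa2 was 1.44-fold higher, by 0.52 ± 0.10 (adjusted p = 0.00986), with 0.48 ± 0.10 from its second probe. The call was lost without GFP positive replicate 1 (adjusted p = 0.0531), without GFP negative replicate 2 (adjusted p = 0.0532) and with scale in place of quantile normalization (adjusted p = 0.0506).

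Apob stood at 6.77, 6.84 and 6.26 in GFP positive and at 5.26, 5.79 and 5.48 in GFP negative cells. Of the GFP negative arrays only the second was detected, and the third GFP positive array was the lowest of its group. Apob was at least 1.81-fold higher in GFP positive cells (adjusted p = 0.00163). Vldlr stood at 9.74, 9.65 and 9.71 against 9.02, 8.86 and 8.94. Both groups were tight and far apart relative to their spread. It was 1.69-fold higher, by 0.76 ± 0.08 (adjusted p = 5.97e-05), and the other kept probes gave 0.86 and 0.72.

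Lower in GFP positive cells were Apom, Apoe and both genes of lipid loading and triglyceride synthesis. Apom stood at 9.61, 9.49 and 9.74 in GFP positive and at 10.81, 10.54 and 10.69 in GFP negative cells. The fractions did not overlap. It was 2.09-fold higher in GFP negative cells, by 1.06 ± 0.12 (adjusted p = 0.000174), and its second probe gave 1.05. Mttp stood at 7.33, 7.23 and 7.20 against 7.75, 7.88 and 7.98. The third GFP negative array was the highest. Mttp was 1.53-fold higher in GFP negative cells (adjusted p = 0.0105), a call lost without GFP negative replicate 3 (adjusted p = 0.052).

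Apoe stood at 10.74, 10.69 and 10.65 in GFP positive and at 10.94, 11.00 and 11.17 in GFP negative cells. The fractions were separate but close, with the third GFP negative array the highest. Apoe was 1.27-fold higher in GFP negative cells, by 0.34 ± 0.09 (adjusted p = 0.0396). That call did not hold when any 1 of the 6 sorted arrays was left out, with adjusted p from 0.05 without GFP negative replicate 1 to 0.165 without GFP negative replicate 3, and its adjusted p was 0.0668 with scale normalization and 0.0804 without the detection filter. Mogat2 stood at 5.44, 5.17 and 5.44 in GFP positive and at 6.38, 6.05 and 6.06 in GFP negative cells. No GFP positive array detected it and all GFP negative arrays did. It was at least 1.37-fold lower in GFP positive cells (adjusted p = 0.000818), although it entered the test largely through the group in which it was high.

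**Figure D3:**
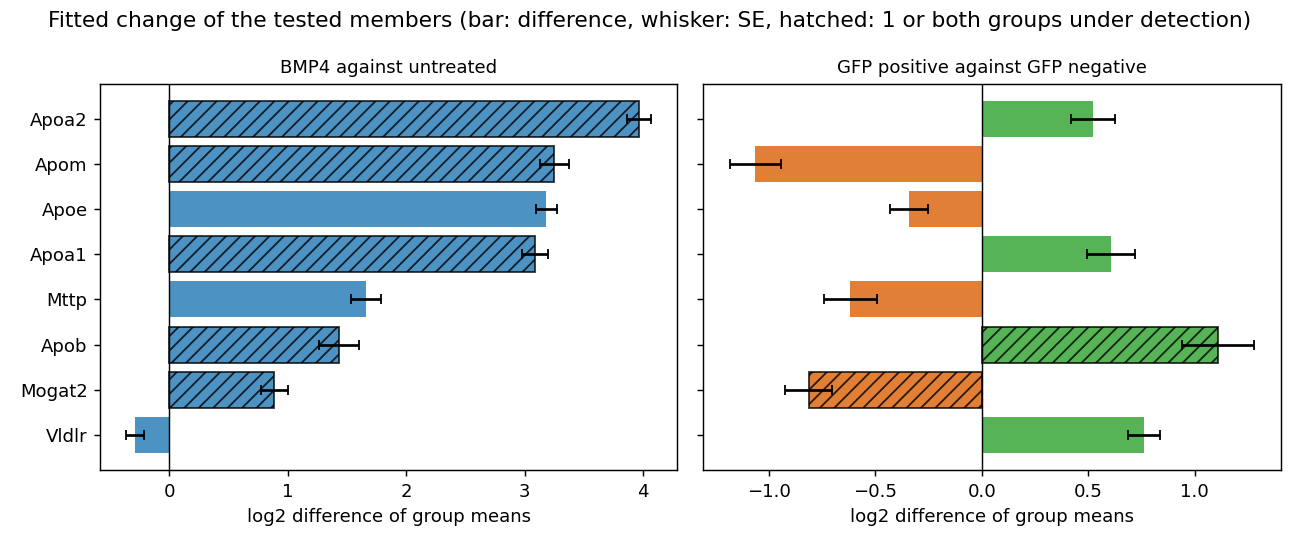
Fitted log2 difference of group means for the 8 tested genes (bars, with SE as whiskers), BMP4 against untreated on the left and GFP positive against GFP negative on the right, with hatching where 1 or both groups lay under the detection level, in which case the bar depends on the background offset. On the left 7 bars lie above 0 and Vldlr below it, and on the right 4 bars lie on each side.

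The fractions were also set against untreated cells. In GFP negative cells 7 of the 8 genes were called higher and Vldlr lower, where 74.7% of all genes were called, 38.5% higher and 36.2% lower. In GFP positive cells 7 were called higher and none lower, where 73.7% were called, 37.7% higher and 35.9% lower, and the same 7 had an unadjusted p under 0.05 in limma. Apoa1, Apoa2, Apob, Apom and Mogat2 were on no untreated array and entered the test only through treated groups. The counts therefore describe these genes and are no support for a direction. Mogat2 was on no GFP positive array either, so no fold is given for it there. Both comparisons share the untreated arrays. They also set sorted against unsorted samples, so BMP4, the sort and the lower brightness of the sorted arrays cannot be told apart. Apom was at least 36.8-fold higher in GFP negative cells (adjusted p = 1.12e-13) and at least 17.6-fold higher in GFP positive cells (adjusted p = 6.11e-13), with bounds of 14.4-fold and 6.95-fold from its second probe. Apoa2 was at least 14.7-fold and at least 21.1-fold higher, with 3.05-fold and 4.27-fold from its second probe, and Apoa1 at least 4.22-fold and at least 6.42-fold. Apoe was 10.8-fold higher in GFP negative and 8.56-fold higher in GFP positive cells, and Mttp 5.13-fold and 3.35-fold.

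Vldlr was 1.68-fold lower in GFP negative than in untreated cells (adjusted p = 7.35e-07). In GFP positive cells its brightest probe differed from untreated by 0.01 ± 0.08 (adjusted p = 0.905). The probes of Vldlr disagreed on that comparison, since another kept probe fell by 0.34 (adjusted p = 0.00311) and the third by 0.13 (adjusted p = 0.163). Apob was at least 2.21-fold higher in GFP positive than in untreated cells (adjusted p = 6.37e-08). In GFP negative cells its adjusted p against untreated cells was 6.45e-05, with both means under the detection level, so no fold is given.

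Because both fractions came from BMP4-treated cells, the unsorted BMP4 samples were set against each of them, a comparison added after the data were seen. Here 66% of all genes were called for GFP positive cells, 32.6% higher and 33.4% lower, and 65.9% for GFP negative cells, 33.3% higher and 32.6% lower. For GFP positive cells 4 of the 8 genes were called higher (Apoa2, Apob, Apom and Vldlr) and none lower, with 5 at an unadjusted p under 0.05 in limma. For GFP negative cells 4 were called higher (Apoe, Apom, Mttp and Mogat2) and 2 lower (Apoa1 and Vldlr). For Apoa1, Apob, Apoe and Vldlr the mean of the unsorted samples lay between the means of the fractions. Apom did not behave so. Its unsorted mean was 7.85 ± 0.25 against 9.61 ± 0.13 in GFP positive and 10.68 ± 0.14 in GFP negative cells (SD, n = 3). It was thus 3.38-fold lower than in the GFP positive fraction (adjusted p = 4.43e-08) and 7.08-fold lower than in the GFP negative fraction (adjusted p = 7.44e-10).

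The second probe of Apom gave differences of 1.79 and 2.84 from the unsorted samples, near the 1.76 and 2.82 of the first. The raw signals of Apom ran the same way, at 49 to 53.4 in untreated, 247.2 to 319.6 in BMP4, 607.2 to 860.2 in GFP positive and 1459.4 to 1820.1 in GFP negative samples, although the sorted arrays were the dimmer ones. Afp likewise had a lower mean in the unsorted BMP4 samples, 6.02 ± 0.11, than in either fraction. For Apoa2 the brighter probe put the unsorted mean, 9.14 ± 0.13, below both fractions, while the second probe put it between them, so the order depends on the probe. Mttp stood at 7.17 ± 0.13 in unsorted samples, 0.08 below GFP positive cells (adjusted p = 0.572) and 0.70 below GFP negative cells (adjusted p = 0.000235). Whether sorting itself, or separate BMP4 treatments of the sorted and unsorted cultures, contributed was not tested.

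The order of the levels over the 4 groups therefore differed between the genes. Apom rose at each step from untreated to unsorted BMP4, GFP positive and GFP negative cells, with every neighbouring pair called. Apob had means under the detection level in untreated and GFP negative cells, which have no order. Unsorted BMP4 cells came next and GFP positive cells were highest. The difference between the GFP negative and BMP4 groups did not pass the threshold (adjusted p = 0.0755). It did pass without BMP4 replicate 3 (adjusted p = 0.0412), GFP positive replicate 3 (0.0399) or GFP negative replicate 2 (0.0253). Apoa1 ran from untreated through GFP negative and unsorted BMP4 to GFP positive cells, with GFP negative cells below BMP4 (adjusted p = 0.0139). The GFP positive arrays of Apoa1 lay wholly above those of BMP4, by 0.26 with an adjusted p of 0.0544, a difference near the threshold that was called under 6 settings, such as offset 50 (adjusted p = 0.0201), without untreated replicate 1 (0.0345) or 2 (0.0396), without BMP4 replicate 3 (0.0366) and without GFP positive replicate 3 (0.0457). Apoe was lowest in untreated cells, did not differ beyond its spread between GFP positive and BMP4 cells (adjusted p = 0.406) and was highest in GFP negative cells. Mogat2 had means under the detection level in untreated, BMP4 and GFP positive cells, which have no order, and was highest in GFP negative cells. Vldlr was lowest in GFP negative cells and next in BMP4 cells, and by its brightest probe GFP positive and untreated cells, the highest, were not told apart. Another kept probe of Vldlr put GFP positive cells below untreated cells and did not tell them apart from BMP4 cells (0.14, adjusted p = 0.183), so this order depends on the probe.

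The apolipoproteins of HDL did not keep 1 order among themselves after sorting, since Apoa1 and Apoa2 were higher in GFP positive and Apom in GFP negative cells. Over the 12 arrays the normalized values of Apoa1 and Apoa2 correlated at r = 0.985, Mttp and Apoe at r = 0.968, Mttp and Apom at r = 0.954, and Apob and Mogat2 at r = 0.428. Vldlr correlated negatively with the other 7, from -0.02 with Apob to -0.80 with Mogat2. These correlations describe arrays that share 4 group means and 1 normalization.

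The other genes of lipoprotein metabolism were listed by their known function. Only 1 of 11 further exchangeable apolipoproteins was measured, Clu, which encodes apolipoprotein J. It fell by 1.49 ± 0.08 with BMP4 (adjusted p = 4.53e-09), and it was lower by 0.35 in GFP positive than in GFP negative cells (adjusted p = 0.0276). Apoa5, Apoc1, Apoc4 and Apoh were not detected on any array.

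Of 26 further genes of assembly and export, 19 were measured. With BMP4, 7 rose and 8 fell, beside 30.2% and 28.7% of all genes, with a median of -0.06 against 0.03 over all genes tested. One of the 7, Preb, had an adjusted p of 0.0483 and lost its call in 16 of 22 other settings. Among those that rose, Cideb, which enlarges VLDL in mouse liver, was at least 5.38-fold higher (adjusted p = 1.7e-10). Cideb was detected on no untreated array and entered the test only through treated groups. Dgat2, an enzyme of the last step of triglyceride synthesis, rose by 1.86 ± 0.12 (adjusted p = 1.38e-08). Among those that fell were the acyl-CoA synthetases Acsl5, by 1.67 ± 0.10 (adjusted p = 8.69e-09), and Acsl1, by 1.16 ± 0.12 (adjusted p = 1.66e-06). Between the fractions, 2 were higher in GFP positive cells and 1 lower, beside 3.07% and 2.32% of all genes. Higher were Lpgat1 by 0.34 (adjusted p = 0.011) and Dgat1 by 0.34 (adjusted p = 0.0436), and lower was Soat2, by 0.43 (adjusted p = 0.011). The list median was -0.02. Soat2, which esterifies cholesterol for particle export, had risen by 1.10 ± 0.09 with BMP4 (adjusted p = 1.63e-07). Against untreated cells, Cideb, Dgat2, Acsl5, Acsl1 and Soat2 were called in both fractions with the same sign as in unsorted BMP4 cells. Lpgat1 had fallen by 0.41 in unsorted BMP4 cells (adjusted p = 0.000187). In the fractions its brightest probe was higher than in untreated cells, by 0.364 in GFP negative and 0.705 in GFP positive cells. Fabp1, Fabp2, Mogat1 and Apobec1 were not detected on any array.

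Of 15 genes of lipoprotein receptors and uptake beyond Vldlr, 8 were measured. With BMP4 2 rose and 5 fell, beside 30.2% and 28.7% of all genes, with a median of -0.25. Lrp8, the apolipoprotein E receptor 2 and a close relative of the VLDL receptor, rose by 1.38 ± 0.09 (adjusted p = 2.06e-08) while Vldlr fell. Lsr, the lipolysis-stimulated receptor, rose by 1.15 ± 0.08 (adjusted p = 4.75e-08). Scarb2, a protein of the lysosomal membrane and no lipoprotein receptor at the cell surface, fell by 1.98 ± 0.10 (adjusted p = 1.62e-09), and Lrpap1, which encodes a chaperone of this receptor family, by 0.56 (adjusted p = 1.81e-05). In GFP positive cells Lrp8 was lower by 0.40 (adjusted p = 0.0184) and Dab2, an endocytic adaptor of these receptors, by 0.28 (adjusted p = 0.0335). None was higher, beside 2.32% of all genes called lower and 3.07% higher, and the list median was -0.05. Lrp8 and Vldlr thus had opposite signs in both comparisons. Against untreated cells, Lrp8, Scarb2 and Lrpap1 were called in both fractions with the same sign as in unsorted BMP4 cells. Lsr was called in neither fraction, at -0.03 in GFP negative (adjusted p = 0.782) and -0.18 in GFP positive cells (adjusted p = 0.0583). Dab2, lower by 0.215 in unsorted BMP4 cells, was higher than untreated by 0.497 in GFP negative and 0.219 in GFP positive cells. Scarb1 was not detected on any array.

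Plasma remodelling and efflux was represented by 4 of 18 genes. None rose with BMP4 and 3 fell, beside 30.2% and 28.7% of all genes. Bmp1, a protease that trims the apolipoprotein A-I precursor, fell by 1.32 ± 0.08 (adjusted p = 9.42e-09). The phospholipid transfer protein gene Pltp fell by 0.91 ± 0.07 (adjusted p = 1.06e-07) and the lipase maturation factor Lmf1 by 0.48 ± 0.09 (adjusted p = 0.000331). The list median was -0.70. Between the fractions limma called 0 of the 4 and 5.39% of all genes, with 2 of the 4 at an unadjusted p under 0.05. Abca1 and Lpl were not detected on any array.

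Of 27 transcription factors known to act on apolipoprotein genes, 15 were measured. With BMP4 5 were called higher and 5 lower, beside 30.2% and 28.7% of all genes, with a median of -0.08. One called higher, Foxa1, was not detected on any untreated or BMP4 array, so no fold is given, and its call was lost with offset 50 (adjusted p = 0.0601). The rises included Cdx2, an intestinal homeobox factor, at least 5.06-fold (adjusted p = 3.97e-10), Foxa3, by 2.64 ± 0.08 (adjusted p = 1.48e-11), and Hnf4a, the nuclear receptor of the HNF4 motif, by 1.87 ± 0.12 (adjusted p = 1.89e-08). Foxa3 and Hnf4a were also called higher in both sorted fractions against untreated cells. Cdx2, in contrast, was detected on no sorted and no untreated array. It entered the test only through the unsorted BMP4 group where it was high, so its p-values are no support for a direction. It was at least 4.29-fold lower in GFP positive (adjusted p = 3.22e-09) and at least 4.25-fold lower in GFP negative cells (adjusted p = 3.52e-09) than in unsorted BMP4 cells. Nr2f1, a COUP nuclear receptor, was at least 4.3-fold lower with BMP4 than in untreated cells (adjusted p = 1.86e-12). It was detected only on untreated arrays and entered the test through that group alone, so the same limit holds. Between the fractions 2 were higher in GFP positive cells and none lower, beside 3.07% and 2.32% of all genes. They were Foxa1, by 0.75 ± 0.11 (adjusted p = 0.00089), and Cebpb, by 0.34 ± 0.08 (adjusted p = 0.0305). The median was 0.05, or 0 with the genes under detection in both fractions, which have no bound, set at 0. Nr1h3, Nr1h4, Ppara and Cebpa were not detected on any array. Of the 8 genes of these lists called between the fractions, only Foxa1 kept its call whichever array was left out. The highest adjusted p over these leave-one-out fits was 0.0546 for Lpgat1, 0.0568 for Soat2, 0.0942 for Lrp8, 0.116 for Clu, 0.116 for Cebpb, 0.132 for Dgat1 and 0.143 for Dab2. With the mean of the kept probes in place of the brightest, the difference of Lpgat1 was 0.085 (adjusted p = 0.725) and that of Soat2 -0.127 (adjusted p = 0.603).

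**Figure D4:**
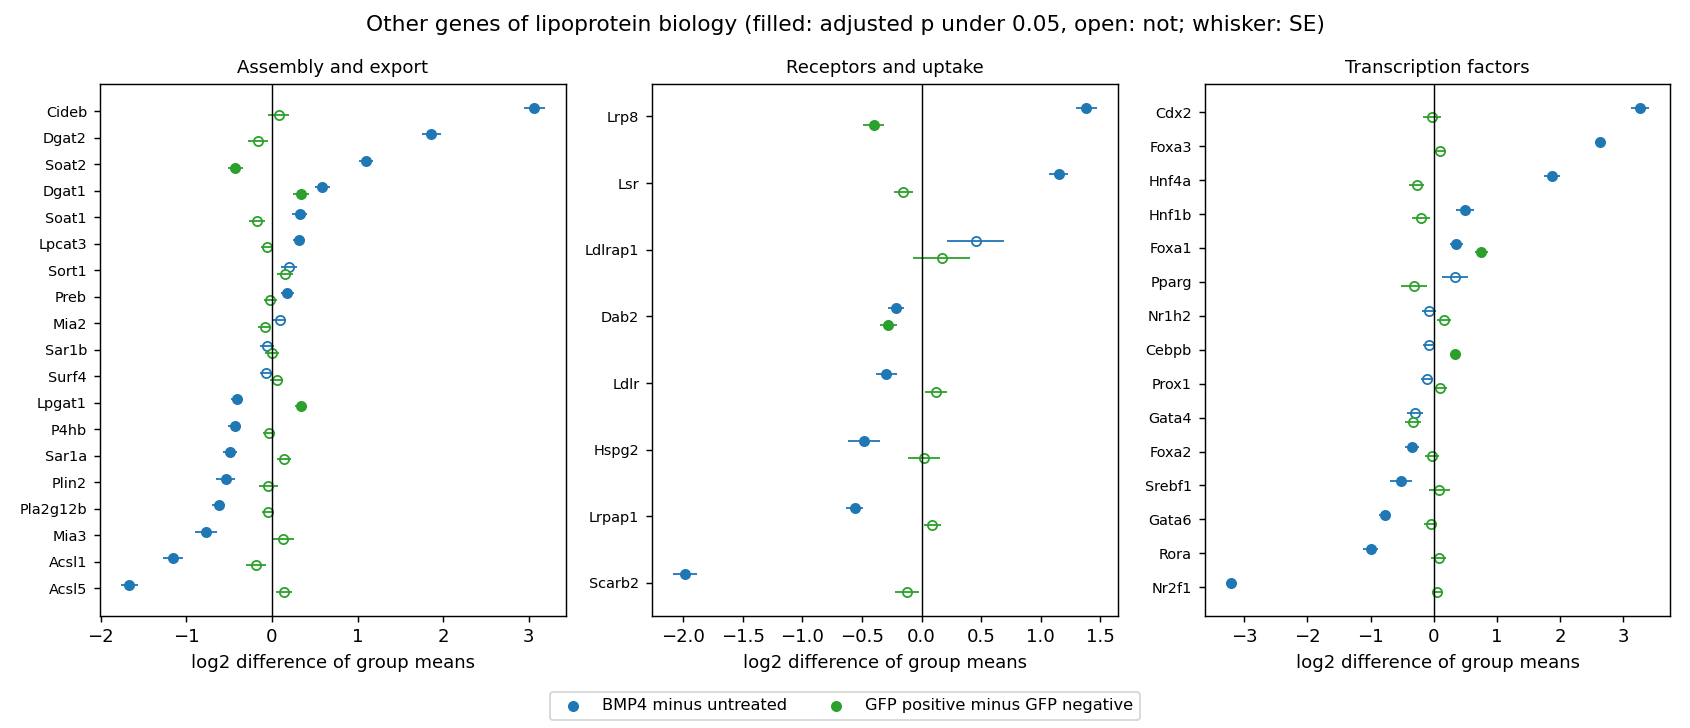
Log2 difference of group means with SE for the measured genes (rows) of 3 lists, assembly and export, receptors and uptake, and transcription factors, for BMP4 against untreated and for GFP positive against GFP negative, filled where called (genes under detection in a group are drawn at their fitted difference). The BMP4 differences spread to both sides of 0, and all but 7 of the points for the fractions are open.

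Pearson correlation over the 12 arrays reflects 4 group means more than single arrays. The gene most like each tested member by this measure was sought among all tested genes other than the members. It was Ifitm1 for Apoa1 (r = 0.991), Casp6 for Apoa2 (r = 0.998), Dusp14 for Apob (r = 0.972) and Sephs2 for Apoe (r = 0.996). It was Rfx6 for Apom (r = 0.995), Pgk1 for Mttp (r = 0.989) and 2700097O09Rik for Mogat2 (r = 0.963). Vldlr was the least closely matched, by Lmo4 (r = 0.951).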

How the data were processed

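Members and lists were chosen with earlier results of these data known. Per the file headers, the scanner table was exported by the authors from BeadStudio 3.4.0 and gives each probe's mean bead intensity, not normalized, with a detection fraction (1 minus p). The authors' processed values, on a log2 scale, cover 20178 probes with nearly equal array medians, and the submitters' processing notes name lumi. Their normalization beyond that, their centring and their link to the genes are unknown here, and they were not used for values.

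Intensities were background-corrected with limma's nec (limma 3.58.1 in R 4.3.3, offset 16, negative controls inferred from the detection values), quantile-normalized and taken to log2. Probes detected at p under 0.01 on at least 3 of 12 arrays were kept (15448; 29833 were dropped), and the brightest kept probe stood for a gene. Of the probe symbols, 13430 equalled a RefSeq symbol, 8112 matched a synonym and 9948 were kept as given. Group means were fitted with lmFit and moderated with eBayes (8 residual and 5.08 prior degrees of freedom), with Benjamini-Hochberg adjustment over 10597 genes. The code was tested on simulated data. A group not detected on any array, or with a mean under the mean of its arrays' lowest detected values, gives a bound. Named list genes were the called ones with the largest changes, up to 4 a list and comparison, or all where 5 or fewer were called. A gene of the receptor list is not reported here. Arrays of a group correlated at 0.994 to 0.997, and no pair was identical. Over all groups, deviations of arrays with the same replicate number correlated at r from -0.112 to 0.152, above 0.1 in 2 of 18 pairs. Those 2 were GFP positive with GFP negative replicate 1 (0.152) and replicate 2 (0.127). Replicate 3 of the fractions gave -0.013, and unlike numbers of the fractions gave -0.197 to 0.078. Whether the fractions were paired by sort is thus not settled, and the main fit did not use the numbers as pairs. The number of arrays limits the precision.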

Additional observations from a re-analysis of the deposited data

How the results depend on the processing

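The BMP4 calls of all 8 tested members, and the GFP calls of Apoa1, Apob, Apom, Mogat2 and Vldlr, held at an adjusted p under 0.05 with each other normalization, background, filter and probe setting in which they were tested, with the block and with any 1 array left out. A required log2 change of at least 1 removed the BMP4 calls of Mogat2 and Vldlr and the GFP calls of Apoa1, Mogat2 and Vldlr. This cutoff was applied to fitted differences, here and in the counts below. Apob kept both calls by its fit, although its bound was 0.397 with BMP4 and 0.856 between the fractions. Genes called between the fractions numbered 571, and 287 with scale normalization, 918 with array weights, 240 at an adjusted p under 0.01, 40 with an absolute log2 change of at least 1, and 290 to 645 with 1 array left out. With a change of at least 1, BMP4 against untreated gave 1058 genes, GFP negative 2229 and GFP positive 2176. The members then called were 0 lower with BMP4, 1 higher and 1 lower in GFP positive against GFP negative cells, 0 lower in GFP negative against untreated cells, 1 higher in GFP positive against unsorted BMP4, and 1 higher and 0 lower in GFP negative against unsorted BMP4. At an adjusted p under 0.01, 2 members were lower in GFP positive against GFP negative cells and 1 in GFP negative against unsorted BMP4. With 1 array left out, 2 to 4 members were lower and 3 to 4 higher between the fractions, and 2 to 3 lower and 3 to 5 higher in GFP negative against unsorted BMP4. Scale normalization moved the median of all genes to -0.16 for GFP positive and -0.11 for GFP negative against unsorted BMP4, and the Vldlr rise in the former then lost its call (adjusted p = 0.304). Against unsorted BMP4, leaving out an array also lost the calls of Apoe (adjusted p up to 0.0996) and Apoa1 (0.0608) in GFP negative cells. Calls were gained for Apob in GFP negative cells without each of 3 arrays (lowest adjusted p 0.0253), for Apoa2 in GFP negative cells with offset 50 (0.0435) and without BMP4 replicate 2 (0.0364), and for Apoa1 in GFP positive cells under 6 settings (lowest 0.0201 with offset 50). The BMP4 rise of Preb, an export factor, turned to -0.025 with the mean of its kept probes. The replicate block left the Apoe difference between the fractions at -0.34 with an adjusted p of 0.069, which lost its call, and gave 503 genes called between the fractions and 6189 with BMP4. The causes were not tested. The comparison with the authors' processed values was not run, because their probe identifiers were not linked to genes. Probes near the detection level (Apob, Mogat2, untreated Mttp) are limited by signal over background.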
